A study of Homo sapiens with 12 samples.

Results

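The mitochondrial ribosomal protein (MRP) genes are the nuclear genes for the proteins of the ribosome inside mitochondria. They were taken by symbol alone, as every protein-coding gene on chromosomes 1 to 22 and X whose symbol starts with MRPL or MRPS followed by a number. No measured value entered this rule, though the set was chosen with earlier results of these data known. The rule gave 78 of the 19626 protein-coding genes of GENCODE 44. By structure, 51 of them encode proteins of the large subunit (MRPS30 and MRPS18A among them, in spite of their names) and 26 encode proteins of the small subunit. The remaining member, MRPS36, encodes a component of the α-ketoglutarate dehydrogenase complex and kept its ribosomal name.

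The samples were RT112 cells, an established line from a human transitional cell carcinoma of the bladder that the study classes as ARID1A wild type, grown in DMEM with serum, with no drug, knockdown or other treatment named in the labels of these samples. CUT&RUN, which cuts out and sequences the DNA under an antibody in permeabilized cells, was carried out on 12 samples: 3 each with an Abcam antibody against ARID1A, a CST antibody against ARID1A, an antibody against H3K4me3, and IgG. ARID1A belongs to BAF (SWI/SNF), a complex that moves nucleosomes,, and H3K4me3 is a histone mark of active promoters. The deposited lists give 1 set of regions per antibody merged over its 3 samples, as start and end positions with no signal, so a promoter either held a region or did not, and replicates and depth could not be compared. The IgG regions were not analysed here.

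The lists held 9765 H3K4me3 regions (median width 3046 bp), 37501 Abcam regions (1486 bp) and 32932 CST regions (1442 bp). A promoter here is 1 kb on either side of any transcription start site (TSS) of a gene's protein-coding transcripts. Promoter H3K4me3 fitted the labelled cell type: it lay at 11 of 11 urothelial and epithelial markers, among them GATA3, PPARG, KRT7 and EPCAM, and at 0 of 8 markers of blood, endothelial, stromal, liver, muscle and nerve cells. Since every share below counts genes in a single cell line, its 95% exact (Clopper-Pearson) interval covers counting error only and treats genes as independent, which neighbors on 1 region are not. No test was run, because genes are not replicates.

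Mitochondria carry their own ribosome, which translates the few messages encoded by mitochondrial DNA into core subunits of the respiratory chain and of ATP synthase. Its RNAs are mitochondrial transcripts, but all of its proteins are made from nuclear genes, translated in the cytosol and imported. Many of the proteins descend from those of the bacterial ribosome, and others were added in mitochondria. Nuclear genes for mitochondrial proteins are known for promoters with CpG islands, for sites of NRF1, of the ETS factor GABP and of YY1, and for sharing a promoter with a neighbor transcribed the other way.

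The promoter sequences that the results turn on are shown first. They are the RefSeq windows (GRCh38.p14) of 250 bases before the TSS and 50 bases from it, 300 bases each, read 5′ to 3′ along the gene. Capitals mark the words searched for below under the names of NRF1 (GCGCANGCG), ETS factors (CCGGAAG) and YY1 (AAGATGG), on either strand. The first 3 are the members with the widest ARID1A regions of both antibodies, and each whole window lies inside its H3K4me3, Abcam and CST region. They are MRPL51 (chr12:6493213-6493512, minus strand), MRPL36 (chr5:1799788-1800087, minus strand) and MRPS2 (chr9:135500432-135500731, plus strand).
MRPL51: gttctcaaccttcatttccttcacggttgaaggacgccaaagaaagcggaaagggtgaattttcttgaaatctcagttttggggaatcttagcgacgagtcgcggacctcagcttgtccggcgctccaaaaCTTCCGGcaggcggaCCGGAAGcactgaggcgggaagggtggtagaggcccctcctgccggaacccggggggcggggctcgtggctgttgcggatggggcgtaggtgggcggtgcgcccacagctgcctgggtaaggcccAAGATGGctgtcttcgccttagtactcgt
MRPL36: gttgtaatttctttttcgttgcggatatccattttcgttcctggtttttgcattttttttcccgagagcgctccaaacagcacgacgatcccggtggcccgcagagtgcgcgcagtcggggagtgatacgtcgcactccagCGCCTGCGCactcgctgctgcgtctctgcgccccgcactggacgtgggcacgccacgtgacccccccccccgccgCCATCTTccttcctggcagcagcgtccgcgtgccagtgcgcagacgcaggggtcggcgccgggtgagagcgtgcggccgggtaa
MRPS2: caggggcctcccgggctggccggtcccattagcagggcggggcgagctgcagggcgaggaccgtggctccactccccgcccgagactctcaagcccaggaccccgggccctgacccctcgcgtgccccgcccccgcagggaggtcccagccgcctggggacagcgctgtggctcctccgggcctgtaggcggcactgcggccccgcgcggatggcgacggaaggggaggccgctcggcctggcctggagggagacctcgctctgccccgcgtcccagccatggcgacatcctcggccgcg

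The next 3 windows belong to the members with the widest H3K4me3 regions among those that had a window and no ARID1A region of either antibody. They lie whole inside H3K4me3 and outside both ARID1A lists. They are MRPL12 (chr17:81703117-81703416, plus strand), MRPS34 (chr16:1773085-1773384, minus strand) and MRPL46 (chr15:88467339-88467638, minus strand), the last of which shares its promoter with MRPS11. MRPL20 (chr1:1407244-1407543, minus strand) is added because its window alone among the MRP genes held words of all 3 names, and it was picked after the words were counted. It too lies in H3K4me3 and carries no ARID1A region.
MRPL12: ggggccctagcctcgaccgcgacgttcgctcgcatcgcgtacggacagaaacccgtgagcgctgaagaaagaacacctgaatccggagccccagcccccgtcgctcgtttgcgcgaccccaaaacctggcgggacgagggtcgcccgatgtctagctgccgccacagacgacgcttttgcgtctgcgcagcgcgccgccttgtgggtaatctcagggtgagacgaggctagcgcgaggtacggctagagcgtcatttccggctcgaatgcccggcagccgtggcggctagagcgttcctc
MRPS34: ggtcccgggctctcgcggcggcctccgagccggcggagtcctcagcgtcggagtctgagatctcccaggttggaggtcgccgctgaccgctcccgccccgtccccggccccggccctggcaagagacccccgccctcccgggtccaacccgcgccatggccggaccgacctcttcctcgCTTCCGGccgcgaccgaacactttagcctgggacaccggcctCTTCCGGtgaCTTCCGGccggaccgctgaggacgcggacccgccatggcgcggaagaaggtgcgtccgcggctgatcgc
MRPL46: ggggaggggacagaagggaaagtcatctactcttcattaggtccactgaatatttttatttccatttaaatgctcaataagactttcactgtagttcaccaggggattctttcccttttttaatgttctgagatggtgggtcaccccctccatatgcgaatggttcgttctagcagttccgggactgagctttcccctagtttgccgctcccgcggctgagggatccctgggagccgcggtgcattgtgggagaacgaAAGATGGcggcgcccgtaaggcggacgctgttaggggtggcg
MRPL20: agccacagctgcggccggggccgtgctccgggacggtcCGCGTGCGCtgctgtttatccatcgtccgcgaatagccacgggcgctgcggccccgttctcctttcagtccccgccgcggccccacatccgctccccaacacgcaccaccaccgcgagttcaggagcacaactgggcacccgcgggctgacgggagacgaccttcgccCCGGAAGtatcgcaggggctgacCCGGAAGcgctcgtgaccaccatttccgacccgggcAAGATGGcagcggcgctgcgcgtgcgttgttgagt

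H3K4me3 lay at the promoters of nearly all MRP genes, and ARID1A regions of both antibodies lay at somewhat over 1 in 2 of these. H3K4me3 was found at 75 of the 78 MRP genes (96.2%, interval 89.2 to 99.2), against 52.9% of the 19548 other genes (53.1% of all protein-coding genes). Of the 75, 40 carried regions of both ARID1A antibodies (53.3%, 41.4 to 65.0), against 6599 of the 10339 other genes with promoter H3K4me3 (63.8%, 62.9 to 64.8). Among all genes with promoter H3K4me3 the share with both antibodies was likewise 63.8%. The MRP share was 10.5 percentage points below that of the other genes (a difference of -10.5 points). The interval of the other genes lay inside that of the MRP genes, at its upper end. A promoter here covers any TSS, and MRP genes with H3K4me3 had a median of 2 TSSs, against 4 in the other genes. With 1 TSS, both antibodies lay at 14 of 22 MRP genes and 911 of 1555 other genes. With 2 to 3 TSSs it was 13 of 29 and 2021 of 3309, and with 4 or more 13 of 24 and 3667 of 5475. With the most upstream TSS alone the difference was -8.64 points. With or without H3K4me3, 41 of the 78 MRP genes carried both antibodies (52.6%, 40.9 to 64.0), against 38.2% of the other genes (38.2% of all).

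Each antibody gave the same order as the pair. Abcam regions lay at 49 of the 75 MRP promoters (65.3%, 53.5 to 76.0), against 76.4% of the other genes (76.3% of all genes with H3K4me3). CST regions lay at 45 (60%, 48.0 to 71.1), against 68.7% of the other genes (68.7% of all with H3K4me3). A single antibody was found at 14 MRP promoters (18.7%, 10.6 to 29.3), against 17.5% of the other genes and 17.5% of all. Neither antibody was found at 21 (28.0%, 18.2 to 39.6), against 18.7% of the other genes (18.8% of all with H3K4me3). In each case the MRP interval overlapped that of the other genes, for Abcam at its upper end alone (75.5 to 77.2 in the other genes).

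**Figure D1:**
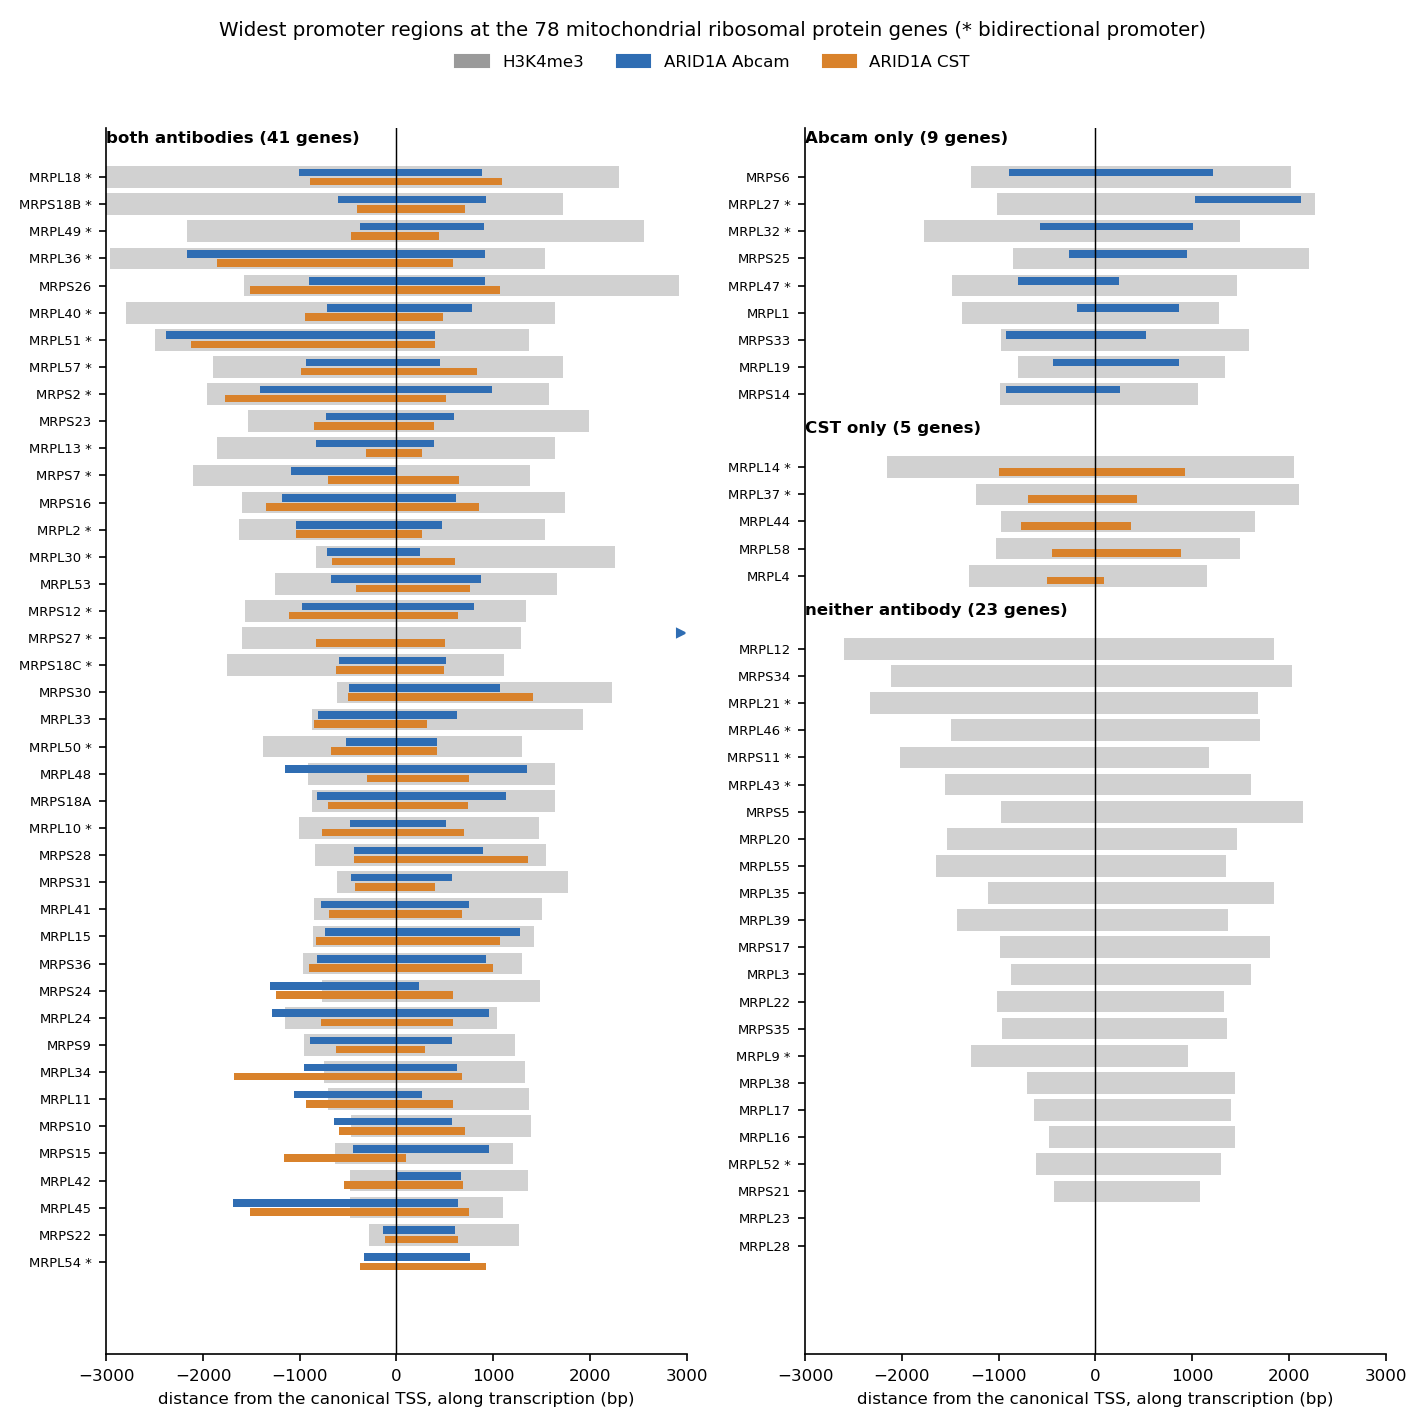
Each row is 1 of the 78 MRP genes, and bars span the widest H3K4me3 (gray), Abcam (blue) and CST (orange) region at its promoter, by distance in bp from the canonical TSS along transcription. Genes are grouped by which ARID1A antibodies were found (41, 9, 5 and 23 genes, counting the 3 genes without H3K4me3) and ordered by H3K4me3 width, a star marks a bidirectional promoter, the H3K4me3 bars of MRPL18 and MRPS18B run past the left edge, and an arrowhead marks the widest Abcam region of MRPS27, which lies beyond the right edge.

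Large-subunit genes held both antibodies at 23 of the 48 with H3K4me3 (47.9%, 33.3 to 62.8), and small-subunit genes at 16 of 26 (61.5%, 40.6 to 79.8). Neither antibody was found at 15 large-subunit genes (31.3%) and 6 small-subunit genes (23.1%). All 5 promoters with CST alone belonged to the large subunit, while those with Abcam alone comprised 5 of the large and 4 of the small. Proteins with a bacterial counterpart had both antibodies at 22 of 44 promoters (50%, 34.6 to 65.4), and those specific to mitochondria at 17 of 30 (56.7%, 37.4 to 74.5). Both pairs of intervals overlapped widely, so neither the subunit nor the origin of the protein separated the promoters at this number of genes.

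The widest ARID1A regions of both antibodies, ranked by the narrower of the pair, lay at MRPL51, MRPL36 and MRPS2. MRPL51, a protein of the large subunit specific to mitochondria, had an Abcam region of 2788 bp and a CST region of 2528 bp within H3K4me3 of 3870 bp. MRPL36, the counterpart of a small bacterial large-subunit protein, had 3081 bp of Abcam, 2444 bp of CST and 4497 bp of H3K4me3. MRPS2, the counterpart of a bacterial small-subunit protein, had 2404 bp, 2282 bp and 3538 bp in the same order. In these 3 genes ARID1A covered most of the marked promoter: Abcam regions covered 72.0%, 68.5% and 67.9% of the H3K4me3 region of MRPL51, MRPL36 and MRPS2, and CST regions covered 65.3%, 54.4% and 64.5%. Against the whole lists, the Abcam region of MRPL36 was wider than 93.2% of Abcam regions and the CST region of MRPL51 wider than 88.8% of CST regions. All 3 genes share their promoter with a neighbor.

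The next 7 in this order were MRPL45, MRPL15, MRPL18, MRPS26, MRPS16, MRPS36 and MRPS12. MRPL45, which holds the ribosome at the inner membrane, had Abcam and CST regions of 2320 bp and 2261 bp that reached upstream beyond its H3K4me3 region of 1579 bp, one of the narrowest of the MRP genes. MRPL18, with the widest H3K4me3 region of the MRP genes (5453 bp), had ARID1A regions of 1897 bp (Abcam) and 1984 bp (CST). MRPS12, the counterpart of the bacterial protein at the decoding center, had 1773 bp (Abcam) and 1747 bp (CST) within H3K4me3 of 2912 bp. MRPL15 (2016 bp Abcam, 1905 bp CST), MRPS16 (1797 and 2205 bp), MRPS26 (1821 and 2584 bp) and MRPS36 (1752 and 1902 bp) completed the list. Most of the genes named so far in this order had H3K4me3 regions wider than the MRP median of 2806 bp. The exceptions were MRPL45, MRPL15 (2289 bp) and MRPS36 (2265 bp). An ARID1A region was wider than the H3K4me3 region of the same gene at MRPL45 (both antibodies), MRPL24 and MRPL34. The widths were 2244 bp on 2192 bp at MRPL24 (Abcam) and 2355 bp on 2083 bp at MRPL34 (CST).

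The other 30 members with both antibodies and H3K4me3 had a narrower region between 1579 bp at MRPL34 and 576 bp at MRPL13. They were MRPL2, MRPL10, MRPL11, MRPL13, MRPL24, MRPL30, MRPL33, MRPL34, MRPL40, MRPL41, MRPL42, MRPL48, MRPL49, MRPL50, MRPL53, MRPL57, MRPS7, MRPS9, MRPS10, MRPS15, MRPS18A, MRPS18B, MRPS18C, MRPS22, MRPS23, MRPS24, MRPS27, MRPS28, MRPS30 and MRPS31. The narrow end held MRPL42 (665 bp Abcam), MRPS22 (739 bp Abcam, 753 bp CST) and MRPS31 (836 bp CST). MRPS22 is a small-subunit protein in which mutations cause mitochondrial disease, and its H3K4me3 region was narrow as well (1550 bp). MRPL49 combined wide H3K4me3 (4720 bp) with small ARID1A regions (1277 bp Abcam, 915 bp CST), which covered 27.1% and 19.4% of it.

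The Abcam and CST regions of these genes mostly lay on the same bases. At all 40 promoters a region of one antibody overlapped a region of the other. A median of 90.2% (79.7 to 95.9) of the widest Abcam region lay in the widest CST region, against 82.1% for the other genes with both. In the reverse measure a median of 89.7% (82.0 to 96.8) of the widest CST region lay in the widest Abcam region, against 93.8% for the other genes. The MRP interval contained the median of the other genes in both measures, so the overlap was not distinguishable from theirs. The least overlap between widest regions was at MRPS27, a small-subunit protein with RNA-binding repeats and 16 annotated TSSs, whose widest Abcam region lay 11157 to 12519 bp downstream of the canonical TSS at an internal TSS. Another Abcam region covered its canonical TSS. MRPS15 came next, with 38.9% of its Abcam region inside the CST region, since its CST region lay mostly upstream (midpoint at -533.5 bp) and its Abcam region mostly downstream (254.5 bp).

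A single antibody was seen at 14 members. Abcam alone lay at MRPL1, MRPL19, MRPL27, MRPL32, MRPL47, MRPS6, MRPS14, MRPS25 and MRPS33, with widths of 1045 bp (MRPL47) to 2114 bp (MRPS6). CST alone lay at MRPL4, MRPL14, MRPL37, MRPL44 and MRPL58, with widths of 581 bp (MRPL4) to 1923 bp (MRPL14). MRPL58 is the peptidyl-tRNA hydrolase that became part of the large subunit, and MRPL44 has the fold of an RNase III. Distances to the missing antibody were measured from the canonical TSS. The nearest CST region lay 5635 bp away at MRPS14 and farther at the other 8. The nearest Abcam region lay 9001 bp away at MRPL14 and farther at the other 4. A missing region can lie nearer to another TSS of the gene. With a window of 3 kb around any TSS, CST lay at 48 of the 75 MRP promoters with H3K4me3, Abcam at 50 and both at 42. At MRPL27 the Abcam region lay 1029 bp downstream of the canonical TSS, at an internal one.

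Neither antibody was found at 21 members with H3K4me3: MRPL3, MRPL9, MRPL12, MRPL16, MRPL17, MRPL20, MRPL21, MRPL22, MRPL35, MRPL38, MRPL39, MRPL43, MRPL46, MRPL52, MRPL55, MRPS5, MRPS11, MRPS17, MRPS21, MRPS34 and MRPS35. They include genes with wide H3K4me3. MRPL12, the counterpart of the bacterial stalk protein that recruits translation factors, had 4446 bp of H3K4me3, wider than 87.3% of all H3K4me3 regions, and its nearest ARID1A regions lay 7064 bp (CST) and 8252 bp (Abcam) from the TSS. MRPS34 had 4149 bp and MRPL21 had 4011 bp. At the other end, MRPS21 had 1511 bp, the narrowest H3K4me3 region of the MRP genes. Measured from the canonical TSS, the closest ARID1A regions to any of the 21 were those of MRPL22 (2395 bp, CST) and MRPL35 (2794 bp, CST). By the same measure, the farthest nearest region of either antibody was that of MRPL39 (126710 bp, Abcam).

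The members MRPL23, MRPL28 and MRPL54, had no H3K4me3 region at the promoter. MRPL54, a large-subunit protein specific to mitochondria, carried ARID1A regions of both antibodies over its TSS, 1095 bp (Abcam) and 1299 bp (CST) wide, with the nearest H3K4me3 region 38881 bp away. Of all genes without promoter H3K4me3, 9.40% carried both antibodies. MRPL28, the counterpart of a bacterial large-subunit protein, had none of the 3 at the promoter, with H3K4me3 9175 bp and CST 1961 bp from its canonical TSS. MRPL23, whose bacterial counterpart lies at the exit of the peptide tunnel, was the most isolated of the 3, with the nearest H3K4me3 region 182508 bp away and the nearest Abcam region 19427 bp away.

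The median region of MRP genes was narrower than that of other genes in all 3 lists. The median widest H3K4me3 region was 2806 bp (interval of the median 2518 to 3000, n = 75) at MRP genes and 3157 bp (3138 to 3182, n = 10339) at the other genes. The medians for Abcam were 1447 bp (1319 to 1545, n = 49) at MRP genes and 1783 bp (1765 to 1807) at the others. Those for CST were 1357 bp (1243 to 1747, n = 45) at MRP genes and 1652 bp (1631 to 1669) at the others. The intervals of the medians stood apart for H3K4me3 and Abcam and overlapped for CST. Among the related genes listed below, respiratory chain subunit genes had medians of 2961 bp (H3K4me3), 1548 bp (Abcam) and 1347 bp (CST). Mitochondrial translation partner genes had 3150, 1648.5 and 1322 bp, and cytosolic ribosomal protein genes 3623, 1614 and 1500 bp. The intervals of these genes overlapped those of MRP genes throughout, except for H3K4me3 at cytosolic ribosomal protein genes (3370 to 4261).

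**Figure D2:**
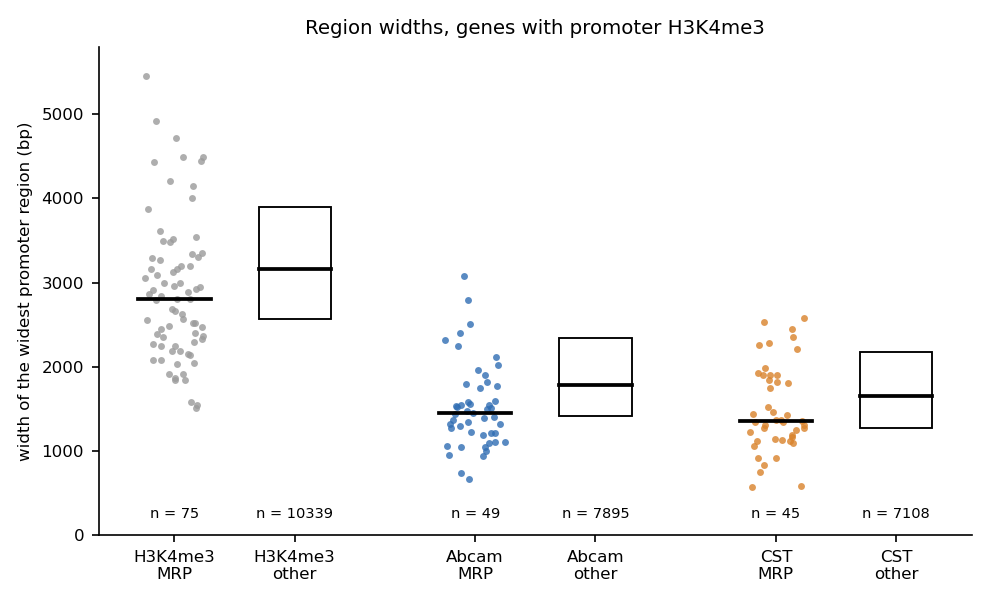
Width in bp of the widest promoter region in each list, for genes with promoter H3K4me3. Points are single MRP genes with their median as a line, and boxes span the middle of the other genes, lower to upper quartile, with their median as a line: MRP medians lie below those of the other genes in each list (2806 and 3157 bp for H3K4me3, 1447 and 1783 bp for Abcam, 1357 and 1652 bp for CST).

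The widest H3K4me3 regions lay at MRPL18 (5453 bp), MRPS18B (4916 bp), MRPL49 (4720 bp), MRPL36 and MRPS26 (4497 bp each), MRPL12 (4446 bp), MRPL40 (4435 bp), MRPL14 (4206 bp), MRPS34 (4149 bp) and MRPL21 (4011 bp). All 10 shared the region with the promoter of at least 1 other gene. Of these 10, 6 carried both antibodies, 1 (MRPL14) CST alone and 3 neither. The narrowest lay at MRPS21 (1511 bp), MRPS22 (1550 bp), MRPL45 (1579 bp), MRPL42 (1840 bp) and MRPS15 (1847 bp), of which all but MRPS21 carried both antibodies. In the other genes, H3K4me3 regions with both antibodies were wider (median 3344 bp) than those with neither (2763 bp). In MRP genes the medians were 2820 bp with both (2391 to 3160, n = 40) and 2806 bp with neither (2242 to 3166, n = 21). These MRP intervals are too wide to tell whether the relation differs in MRP genes.

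Genes were also divided by H3K4me3 width, at the quartiles of all genes with the mark (2567, 3156 and 3893 bp). In the narrowest class 18 of 32 MRP genes held both antibodies (56.3%, 37.7 to 73.6), against 48.8% of the other genes (46.9 to 50.8). In the second class it was 8 of 18 (44.4%), against 59.8%, and in the next 8 of 15 (53.3%), against 66.7%. In the widest class it was 6 of 10 (60%, 26.2 to 87.8), against 80.0% (78.4 to 81.5). The share climbed class by class in the other genes and stayed between 44.4% and 60% in the MRP genes, but each MRP interval contained the share of the other genes in its class. MRP genes were also unevenly spread over the classes, with 32 of 75 in the narrowest.

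**Figure D3:**
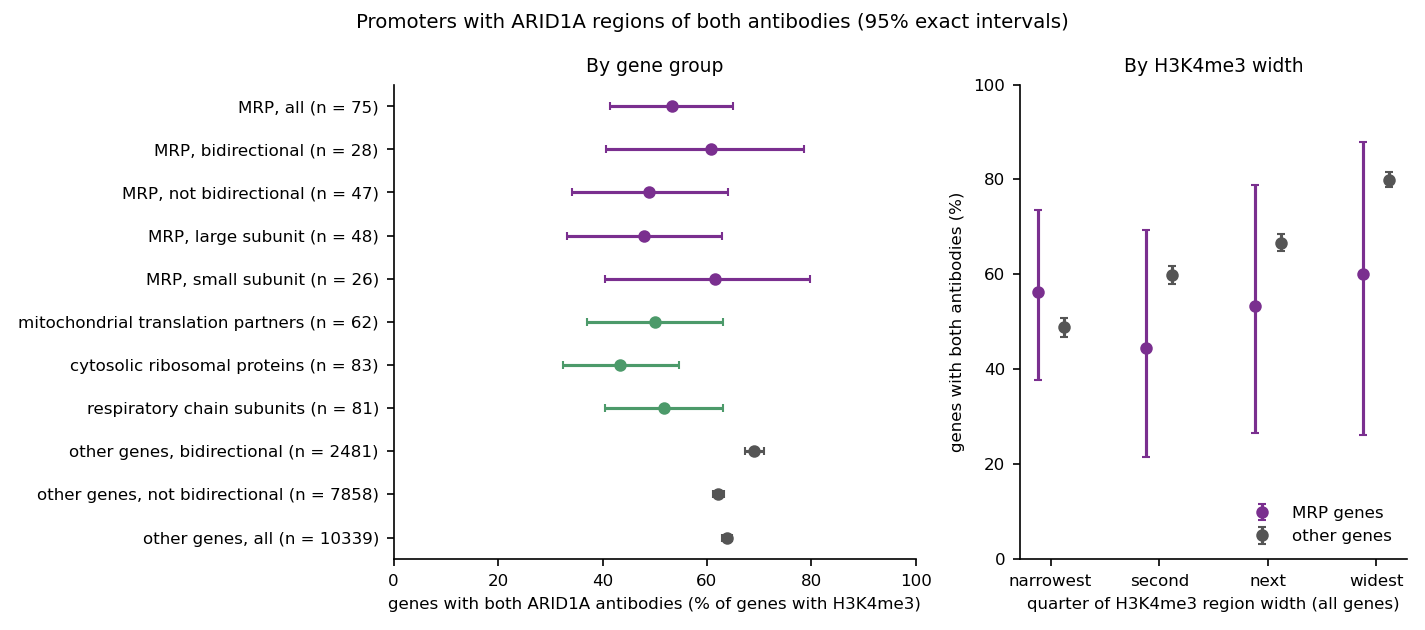
Left: percent of genes with promoter H3K4me3 that carry ARID1A regions of both antibodies, for MRP genes and their subgroups (purple), compared gene lists (green) and other genes (gray). Right: the same percent by class of H3K4me3 width, MRP genes left of other genes. Points are shares and bars 95% exact intervals: the share of other genes runs up to 80.0% in the widest class, where the MRP share is 60% of 10 genes.

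MRP genes often shared a promoter with a neighbor. A bidirectional promoter here has TSSs of 2 protein-coding genes on opposite strands, pointing apart, within 1 kb. This held for 29 of the 78 MRP genes (37.2%, 26.5 to 48.9), against 14.3% of the other genes (14.4% of all), and for 28 of the 75 with H3K4me3 (37.3%, 26.4 to 49.3), against 24.0% of the other genes with H3K4me3 (24.1% of all). In both comparisons the intervals of MRP genes and other genes stood apart. The partner TSS lay at a median of 134 bp (13 to 990 bp), and within 300 bp for 23 of the 29. The median was 120 bp for other bidirectional genes with H3K4me3.

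The first pairs described here were picked for the known role of the partner. MRPL46 and MRPS11, proteins of the large and the small subunit, share a promoter with each other, with TSSs 318 bp apart, a common H3K4me3 region of 3196 bp and no ARID1A region. MRPS12 pairs with SARS2, the mitochondrial seryl-tRNA synthetase (181 bp), and MRPL43 with TWNK, the helicase of mitochondrial DNA (21 bp). MRPL36 pairs with NDUFS6 (41 bp) and MRPL47 with NDUFB5 (138 bp), both subunits of respiratory complex I. Of these pairs, MRPS12 with SARS2 and MRPL36 with NDUFS6 carried both antibodies, MRPL47 with NDUFB5 carried Abcam alone, and MRPL43 with TWNK carried neither.

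The remaining pairs with both antibodies were MRPL2 with KLC4, MRPL10 with LRRC46, MRPL13 with MTBP, MRPL18 with TCP1 (a subunit of the cytosolic chaperonin), MRPL30 with MITD1, MRPL40 with HIRA (a histone chaperone), MRPL49 with FAU (a cytosolic ribosomal protein), MRPL50 with ZNF189, MRPL51 with NCAPD2 (a condensin subunit), MRPL57 with SKA3, MRPS2 with PIERCE1, MRPS7 with GGA3, MRPS18B with PPP1R10, MRPS18C with HELQ and MRPS27 with PTCD2. MRPL54 with APBA3, the pair without H3K4me3, carried both as well. MRPL14 with TMEM63B and MRPL37 with CYB5RL carried CST alone, MRPL32 with PSMA2 (a proteasome subunit) carried Abcam alone, and MRPL9 with OAZ3, MRPL21 with IGHMBP2 and MRPL52 with SLC7A7 carried neither. MRPL46 and MRPS11 are partners of each other, so the 29 genes form 28 pairs. Of these, 27 had the same widest H3K4me3 region and 27 the same ARID1A call, where a region within both promoters counts for both genes. The pair whose calls differed was MRPL27 with EME1 (13 bp), where the Abcam region at an internal TSS of MRPL27 lay outside the promoter of EME1.

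Bidirectional MRP promoters with H3K4me3 carried both antibodies at 17 of 28 genes (60.7%, 40.6 to 78.5), and the other MRP promoters at 23 of 47 (48.9%, 34.1 to 63.9). Bidirectional promoters of other genes carried both at 69.0% and the rest at 62.2%. Among all genes with the mark, these shares were 69.0% with a bidirectional promoter and 62.1% without. The difference within the MRP genes, 11.8 points, had the sign of that in the other genes, 6.87 points, and the MRP intervals overlapped.

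The shape of the marked region changed with the partner. H3K4me3 regions of bidirectional MRP genes had a median width of 3283 bp (3094 to 3615), against 2454 bp (2265 to 2664) at those not bidirectional, and in other genes the medians were 3485 bp with a bidirectional promoter and 3038 bp without. Midpoints of bidirectional MRP genes lay upstream of the TSS, toward the partner, at a median of -112 bp, against 325 bp downstream at those not bidirectional. Other genes showed the same, with -126.5 bp and 385.5 bp. ARID1A medians differed less: Abcam medians were 1375 bp at bidirectional and 1469 bp at other MRP promoters, and CST medians were 1357 bp and 1352 bp. Abcam regions covered a median of 35.7% (33.8 to 47.9) of the H3K4me3 region at bidirectional MRP promoters and 56.1% (47.7 to 66.2) at the others. For CST the medians were 41.1% (33.9 to 54.3) and 57.7% (41.9 to 63.5). The intervals overlapped for both antibodies, narrowly for Abcam. In other genes the Abcam medians were 52.0% with a bidirectional promoter and 57.1% without, and the CST medians 46.8% and 51.8%.

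Along the gene, H3K4me3 reached downstream and ARID1A sat at the start. Over all MRP genes the median midpoint from the canonical TSS was 203 bp for H3K4me3 (27.5 to 310), -36 bp for Abcam (-156 to 97) and -76.5 bp for CST (-197 to -15). The other genes showed the same order, with 294.5 bp, -7.50 bp and -46 bp. The canonical TSS itself was covered by the widest H3K4me3 region at 75 of 75 MRP genes, by the widest Abcam region at 45 of 49 and by the widest CST region at 45 of 45. The 4 without were MRPL27, MRPL42, MRPS7 and MRPS27.

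Gene lists of related function were set beside the MRP genes. Partner genes of mitochondrial translation (translation factors, aminoacyl-tRNA synthetases, assembly factors and 5 ribosomal proteins with other names) carried both antibodies at 31 of 62 promoters with H3K4me3 (50%, 37.0 to 63.0) and had a bidirectional promoter in 25 of 64 (39.1%). Of the 5 ribosomal proteins, DAP3 and PTCD3 carried both and AURKAIP1, CHCHD1 and GADD45GIP1 neither, although CHCHD1 had 6632 bp of H3K4me3. Among the 16 translation factors 7 carried both, among them MTIF3 (initiation), GFM1 (elongation) and GFM2 (recycling). MTRF1L, MTRFR and MRRF carried both as well, and MTRF1 carried CST alone. The initiation factor MTIF2 and the elongation factors TUFM and TSFM carried neither. Initiation and elongation factors thus occurred with and without ARID1A regions, and so few genes cannot show whether the calls follow the step of translation. Among the synthetases 11 of 18 carried both, and among assembly factors 11 of 23 did. Ranked by the narrower of the 2 antibodies, the widest regions lay at CARS2 and FARS2 among the synthetases and at TFB1M and MTERF3 among the assembly factors.

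For mitochondrial DNA transcription 5 of 9 genes with H3K4me3 carried both antibodies, among them TFAM and TFB2M, while TEFM, MTERF1 and TWNK carried neither. Among the regulators of nuclear genes for mitochondria 6 of 8 did, including YY1, ESRRA and GABPB1, and NRF1 carried neither. Respiratory chain subunit genes, counted here with those of ATP synthase, carried both at 42 of 81 promoters (51.9%, 40.5 to 63.1). Cytosolic ribosomal protein genes did so at 36 of 83 (43.4%, 32.5 to 54.7). Neither antibody was found at 34.9% of the cytosolic ribosomal protein genes, against 18.8% of all genes with H3K4me3. The intervals of all of these lists overlapped that of the MRP genes, 41.4% to 65.0%, so the MRP share stood among those of related lists.

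RefSeq windows were matched for 69 of the 78 MRP genes and for 15277 genes in all, 8504 of them with H3K4me3. The MRP genes without a window were MRPL2, MRPL10, MRPL13, MRPL15, MRPL21, MRPL23, MRPL35, MRPS28 and MRPS36. MRP windows had a median GC content of 60.3% (58.7 to 62.7, 67 genes with H3K4me3), against 66.7% (66.3 to 67.0) in the other genes with the mark, and a ratio of observed to expected CpG of 0.883 against 0.871. They were thus less GC-rich at a similar CpG ratio. A word match below is a description of the letters and does not show that a factor binds there, and the part of base composition in the word shares was not tested.

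The ETS word and the YY1 word were more frequent in MRP windows than in the windows of genes with H3K4me3. The ETS word (CCGGAAG, or its complement) occurred in 30 of 69 MRP windows (43.5%, 31.6 to 56.0), against 22.6% with H3K4me3 and 14.7% of all windows. The YY1 word (AAGATGG, or its complement) occurred in 24 (34.8%, 23.7 to 47.2), against 8.60% and 6.57%. The NRF1 word (GCGCANGCG, or its complement) occurred in 14 (20.3%, 11.6 to 31.7), against 17.1% and 11.5%. At least 1 of the 3 was present in 52 MRP windows (75.4%, 63.5 to 84.9), against 41.0% with H3K4me3 and 28.4% of all. The MRP intervals for ETS and YY1 lay above those of the genes with H3K4me3, and the interval for NRF1 overlapped.

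Words of other names showed no such excess. The SP word, GGGCGG on either strand, consists of G and C alone and was in 59.4% of MRP windows (46.9 to 71.1), against 75.9% with H3K4me3. The NFY word, CCAAT on either strand, was in 29.0%, against 37.8%. The E-box, CACGTG, was in 7.25%, against 10.5%. Of the 69 MRP windows, 1 held the CRE word (TGACGTCA), 1 the AP-1 word (TGANTCA), 3 the TATA word (TATAAA), 1 the BANP word (TCTCGCGAG) and 0 the ZNF143 word (ACTACAATT), and this 0 allows a share of up to 5.21%. As controls, the reversed ETS word (GAAGGCC) was in 5.80% of MRP windows, against 6.55% with H3K4me3, and the reversed NRF1 word (GCGNACGCG) in 5.80%, against 6.27%. Reversal changed the number of CpG in each of these words, so the controls are not matched for CpG. The YY1 word had no reversed control.

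**Figure D4:**
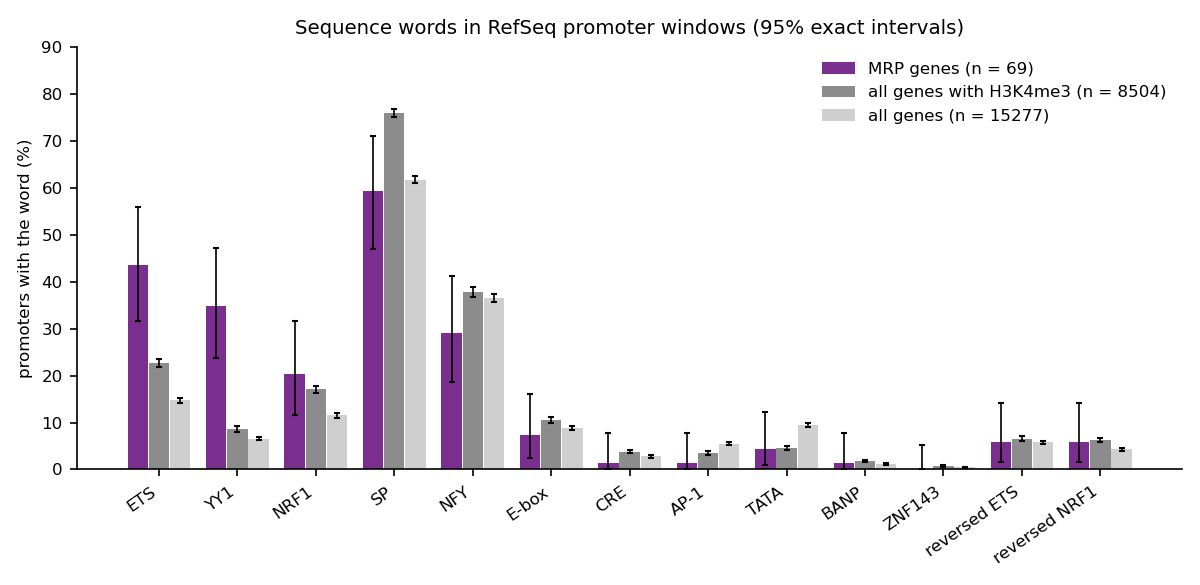
Percent of RefSeq promoter windows that hold each sequence word on either strand, for 69 MRP genes, 8504 genes with H3K4me3 and 15277 genes in all (the last 2 groups include the MRP genes). Bars are shares with 95% exact intervals: ETS (43.5%) and YY1 (34.8%) stand above the H3K4me3 genes (22.6% and 8.60%). The reversed ETS and NRF1 words do not, but they differ in CpG from the words, and YY1 has no reversed word.

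The words were unevenly spread over the windows, in MRP genes and in genes with H3K4me3 as a whole, and the places counted here were set after the positions were seen. ETS words lay near the start, at a median of -24 bases, against -45 bases in genes with H3K4me3. Of the 30 MRP windows with the word, 26 held one from 100 bases upstream of the TSS onward (86.7%, 69.3 to 96.2), against 75.6% of windows with the word in genes with H3K4me3. MRPS34 (3 ETS words) and MRPL20 (2) are among the printed windows. YY1 words lay mostly just past the start. In 17 of 24 windows (70.8%, 48.9 to 87.4) the word read along the gene within the first 50 transcribed bases, as in MRPL51, MRPL46 and MRPL20, against 51.8% of windows with the word in genes with H3K4me3. Both MRP intervals contained the share in genes with H3K4me3, so these places were not shown to differ from those in other promoters. The YY1 word contains ATG, and in 13 windows (18.8%, 10.4 to 30.1) that ATG was an annotated start codon of the gene, against 3.21% of windows with H3K4me3. In the other 11 (15.9%, 8.24 to 26.7) it was not, against 5.39%. MRPL46 is among the 13 and MRPL51 and MRPL20 among the 11. NRF1 words lay at a median of -123 bases, against -67 bases in genes with H3K4me3. They reached within 100 bases of the TSS or past it in 4 of 14 windows (28.6%, 8.39 to 58.1), against 69.4%, and past the TSS in 0 of 14 (up to 23.2%), against 7.59%.

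**Figure D5:**
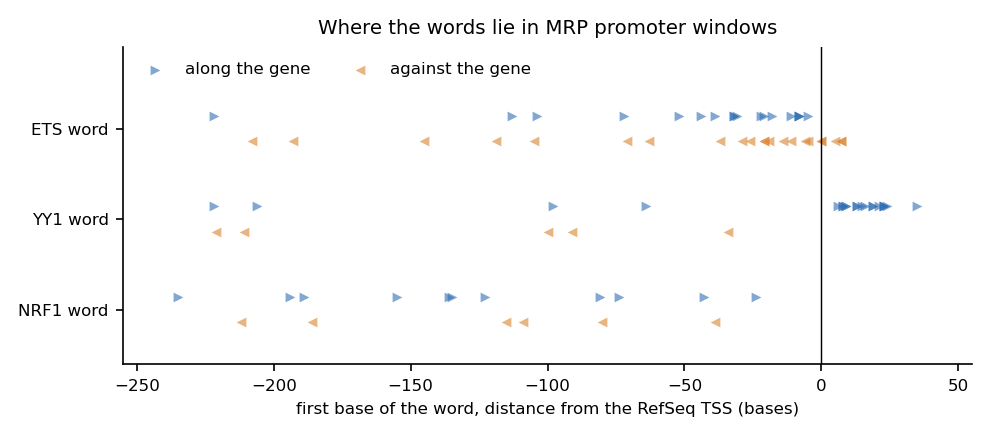
Position of each ETS, YY1 and NRF1 word in the 69 MRP windows, as the distance in bases of its first base from the RefSeq TSS. Blue marks read along the gene and orange marks against it: ETS words gather just before the TSS (median -24), YY1 words that read along the gene gather just after it (17 windows), and NRF1 words lie upstream (median -123), against medians of -45 for ETS and -67 for NRF1 in genes with H3K4me3.

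Set against ARID1A, the YY1 word was in 16 of 34 windows of MRP genes with both antibodies (47.1%, 29.8 to 64.9), in 3 of 14 with 1 antibody (21.4%, 4.66 to 50.8) and in 5 of 19 with neither (26.3%, 9.15 to 51.2). The ETS word was in 16 of 34 (47.1%), 4 of 14 (28.6%) and 8 of 19 (42.1%). At least 1 of the 3 words was in 30 of 34 windows with both antibodies (88.2%, 72.5 to 96.7), in 9 of 14 with 1 antibody (64.3%, 35.1 to 87.2) and in 11 of 19 with neither (57.9%, 33.5 to 79.7). The shares were higher with both antibodies than with neither, but all of these intervals overlapped. By promoter type, the YY1 word was in 12 of 25 bidirectional MRP windows (48.0%, 27.8 to 68.7) and in 12 of 44 others (27.3%, 15.0 to 42.8).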

How the data were processed

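The authors trimmed reads with cutadapt, aligned them to the human (hg38) and E. coli genomes, removed duplicates with Picard, kept uniquely mapping reads, scaled replicates by spike-in reads, called regions with SEACR and merged them over the 3 replicates with bedtools. The methods name SEACR's relaxed mode and the list names its stringent mode, and the amount of spike-in differs between labels and methods. By the methods, only a small top share of the called peaks was then kept. The threshold behind a region is thus uncertain, and a missing region may lie just under it. Libraries were prepared in separate batches, with samples assigned at random. The submitters' processing notes also name bcl2fastq and deepTools, without versions. Unique mapping can leave genes with near-identical copies without regions. The deposited lists hold chromosome, start and end in 3 columns, with no signal, score or p-value, so replicates and depth are unknown here and regions were compared by presence and width.

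Promoters, bidirectional promoters (readthrough genes not counted as partners) and distances were computed in Python 3.11.15 with pandas 2.3.3, numpy 2.4.6 and scipy 1.17.1 from GENCODE 44. A region counted with at least 1 bp in the promoter window, and the widest was measured. Medians carry binomial order-statistic intervals. Genes with H3K4me3 are compared over 10414 genes in all. Calls were tested on simulated regions with known answers. Promoter windows are from RefSeq (GRCh38.p14), searched for 11 words and 2 reversed control words.

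The members and gene lists were chosen with earlier results of these data known. The genes named are all members without H3K4me3, with 1 antibody or with neither, the 10 with the widest regions of both antibodies, the 10 widest and 5 narrowest H3K4me3 regions, and all bidirectional pairs. In the other lists, members without ARID1A and up to 4 with the widest regions could be named, and others named there were picked for their known role. Alternatives varied the window, the TSS, the width, the joining and the overlap of regions.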

Additional observations from a re-analysis of the deposited data

How the results depend on the processing

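No paired analysis was possible because the lists are merged over replicates, which also means that no replicate could be left out. Of 111 values under other settings, 100 moved by less than their counting interval. This count is no measure of robustness, because some settings could not alter some values. A rule on the overlap of Abcam and CST regions, for example, leaves the H3K4me3 share and width as they are. Shares and widths have no direction, so only the difference between MRP genes and other genes could change direction, and it did so in 0 settings. The 11 that moved all came from dropping every region narrower than its list's median width, which removes regions by construction. H3K4me3 then lay at 35.9% of MRP genes, and of those 21.4% carried both antibodies, 39.3% Abcam and 28.6% CST. Both antibodies lay at 20% of bidirectional MRP genes, 25% of other MRP genes and 18.8% of mitochondrial translation partner genes. The median widths among the regions kept were 3510 bp for H3K4me3, 1821 bp for Abcam and 2243.5 bp for CST. The difference between MRP genes and other genes was then -27.8 points, and in the 10 settings tried it ran between -6.53 points (regions covering the TSS base itself) and that value, below 0 in 10 of 10. In settings added after seeing the data, counting each distinct H3K4me3 region once gave both antibodies at 54.1% of 74 regions and a difference of -9.62 points, and leaving out MRPS36 gave 52.7%.

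The lists limit what can be said: with 1 merged set per antibody, a region carried by a single replicate counts like one carried by all 3, and with 75 genes the exact interval of the share with both antibodies ran between 41.4% and 65.0%. Widths reflect the threshold of the caller as well as the extent of the signal. The cause of the differences between groups of genes was not tested.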
